A study of Mus musculus with 18 samples.

Results

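Retinoic acid cultures of wild-type mouse embryonic stem cells were compared with serum cultures of the same cells, in 6 of the 18 RNA-seq libraries of a study of the histone chaperone Daxx. The 3 retinoic acid libraries came from wild-type cells of the E14Tg2a line that were kept for 24 h in serum medium without leukaemia inhibitory factor (LIF) and then for 4 days in medium without LIF that held 10 µM retinoic acid. The 3 serum libraries came from wild-type cells of that line in medium with 10% fetal bovine serum and 1000 units/mL LIF. Serum at 10% is recorded for the retinoic acid cultures as well. All 6 libraries were chosen by genotype and culture label alone. The other 12 libraries came from Daxx-null cells in the same cultures and from cells of both genotypes in 2i medium with vitamin C, and they entered the filters on low values, the estimate of spread and 1 comparison of genotypes. E14Tg2a is 1 established line, the retinoic acid cultures were labelled as neuronal differentiation, and time without LIF, time in culture and retinoic acid changed together, so that their effects cannot be told apart.

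Retinoic acid is made from retinol by dehydrogenases, is carried in the cell by binding proteins, and binds receptors of the Rar family that sit on DNA with a partner of the Rxr family. A common form of such a DNA site is a direct repeat of a 6-base half-site, and bound receptors turn on nearby genes. Among the known targets are enzymes of the Cyp26 family, which break retinoic acid down, and the Hox genes, which set position along the body axis. LIF acts through Stat3 and holds mouse embryonic stem cells in the pluripotent state. Removal of LIF and addition of retinoic acid is a standard way to drive these cells towards neural and other fates.

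Expression is given in FPKM, a read level corrected for gene length and library depth, as the authors scaled it. By inference from the values this is about 10 times a conventional FPKM. Depth, recovered from the steps between low values, was 116.4, 141.7 and 120.7 M counting units in the retinoic acid libraries, against 84.2, 91.66 and 92.8 M in the serum libraries. Every retinoic acid library was thus deeper than every serum library, and the part of depth in the results was not tested. A gene was called higher or lower in retinoic acid at an adjusted p under 0.05 (limma, Benjamini-Hochberg over all genes tested). Fold changes are retinoic acid minus serum on the log2(FPKM + 0.5) scale, on which changes of genes with low values come out too small. The labels give the libraries no batch or date. The series' design text calls the 3 libraries of a group independent without saying how the cultures were separated. Unless stated otherwise, limma p-values and SE use a spread shared by all 18 libraries. They therefore reflect only how much libraries vary within the groups of the whole series. In bulk RNA, fewer cells of a type and less RNA per cell cannot be told apart.

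The change of culture moved most of the genes tested. Of 18002 genes, 5476 were called higher in retinoic acid, which is 30.4%, and 6131 were called lower, which is 34.1%. At a change of at least 2-fold the counts were 3277 higher (18.2%) and 3193 lower (17.7%). The median log2 fold change of all genes tested was -0.05. Counts for gene lists are read against these shares, since 64.5% of the genes were called in 1 direction or the other.

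Among the 3 retinoic acid libraries, replicate 3 stood apart in marker genes. The 5 stem cell markers Pou5f1, Nanog, Zfp42, Esrrb and Dppa5a summed to 95.9, 91.5 and 251 FPKM in retinoic acid replicates 1, 2 and 3, against 18493, 18354 and 19401 FPKM in the serum replicates. The 6 endoderm markers Gata4, Gata6, Sox17, Afp, Ttr and Apoa1 also summed highest in retinoic acid replicate 3, at 511 FPKM, whereas its 5 neuron markers summed lowest in retinoic acid, at 326 FPKM.

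Rarb, a retinoic acid receptor that is itself a known target of retinoic acid, and Cyp26a1, the main enzyme of retinoic acid breakdown in the early embryo, were among the retinoid genes that rose most. Rarb (mm9 chr14:17263354-17407990) measured 405, 395 and 299 FPKM in retinoic acid, against 1.14, 0.936 and 0.427 FPKM in serum. Cyp26a1 (mm9 chr19:37772298-37776026) measured 1353, 1360.5 and 1774 FPKM in retinoic acid, against 2.68, 2.83 and 2.07 FPKM in serum. For both genes the groups were far apart, with a log2 fold change of 8.13 ± 0.22 (SE), limma adjusted p = 1.38e-13 for Rarb. Cyp26a1 had a log2 fold change of 8.95 ± 0.41 (SE), limma adjusted p = 3.8e-11.

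Both genes carry a direct repeat of half-sites spaced by 5 bases close to the start of transcription, and their promoters are shown for that reason. A promoter here is the 300 bases from 250 before to 50 after the start site of RefSeq (GRCm38.p6), given 5′ to 3′ in the direction of the gene, with the 17-base repeat in capitals.
Rarb (GRCm38 chr14:16575427-16575726, minus strand): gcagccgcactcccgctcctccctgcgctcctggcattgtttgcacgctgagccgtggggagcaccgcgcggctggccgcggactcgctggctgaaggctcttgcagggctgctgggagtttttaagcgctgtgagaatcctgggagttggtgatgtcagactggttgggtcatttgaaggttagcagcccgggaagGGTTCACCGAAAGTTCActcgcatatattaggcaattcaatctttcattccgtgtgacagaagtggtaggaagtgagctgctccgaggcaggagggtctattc
Cyp26a1 (GRCm38 chr19:37697558-37697857, plus strand): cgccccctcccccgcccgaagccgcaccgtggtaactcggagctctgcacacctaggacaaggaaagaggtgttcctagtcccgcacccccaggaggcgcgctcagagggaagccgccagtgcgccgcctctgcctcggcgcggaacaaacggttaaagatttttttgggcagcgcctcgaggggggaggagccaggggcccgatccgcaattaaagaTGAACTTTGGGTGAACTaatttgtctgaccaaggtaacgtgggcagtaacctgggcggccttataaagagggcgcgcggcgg
The half-sites searched were AGGTCA, known as the consensus, and the variants AGTTCA together with GGGTCA as well as GGTTCA, in any pair, 5 bases apart, on both strands. In Rarb the repeat spans positions -53 to -37 from the start site and reads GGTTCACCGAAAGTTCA on the strand of the gene. In Cyp26a1 it spans positions -32 to -16 and lies on the other strand, so that the printed strand reads TGAACTTTGGGTGAACT. Such a repeat was found in 0.0974% of the 32851 promoters in the table. Promoters were at hand for 13039 of the 18002 genes tested, and 9 of these genes held the repeat. It was present in 3 of 2327 genes called at least 2-fold higher (Rarb, Cyp26a1 and Syndig1) and in 1 of 2229 called at least 2-fold lower (Cfap45). Blvrb, which also held it, was called lower by less than 2-fold (log2 fold change -0.98, limma adjusted p = 0.00315). The rest of the 9 genes were not called. Repeats spaced by 2 bases occurred in 5 of the 2327 higher genes and 1 of the 2229 lower ones, beside 14 of the 13039 promoters of tested genes. Repeats spaced by 1 base occurred in 4 of the higher and 7 of the lower genes, beside 37 of the 13039. A match is a description of the letters in this window, and receptor binding was not measured.

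Of the retinoid receptors and binding proteins, 8 of 12 tested were higher and 2 lower. Receptor genes differed in direction. Rarg, the receptor that is abundant in undifferentiated stem cells, measured 57.5, 69.9 and 47.4 FPKM in retinoic acid, against 425, 492 and 492 FPKM in serum (log2 fold change -3.01 ± 0.30 (SE), limma adjusted p = 3.04e-07). Rara, the broadly expressed receptor, measured 244, 248 and 223 FPKM in retinoic acid, against 237, 239 and 268 FPKM in serum, and its groups overlapped (limma adjusted p = 0.731). By mean FPKM the order of the 3 Rar genes was thus Rarb above Rara above Rarg in retinoic acid, against Rarg above Rara above Rarb in serum.
Among the partner receptors, Rxra rose to 140.0, 129 and 127 FPKM in retinoic acid, against 43.6, 45.5 and 37.3 FPKM in serum. Rxrb overlapped between the cultures, at 233 to 244 FPKM in retinoic acid and 225 to 248 FPKM in serum (limma adjusted p = 0.861). Rxrg was low in both, and it fell to 0.284, 1.66 and 0.781 FPKM in retinoic acid, against 3.42, 5.15 and 3.76 FPKM in serum (log2 fold change -1.81 ± 0.53 (SE), limma adjusted p = 0.00679).

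The carriers of retinoids rose together. Crabp1 and Crabp2, which bind retinoic acid in the cytoplasm, had log2 fold changes of 3.10 ± 0.53 and 5.31 ± 0.49 (SE). Crabp2 measured 1619.9, 1417 and 1384 FPKM in retinoic acid, against 41, 37.1 and 32.3 FPKM in serum. Crabp1 measured 1802, 1723 and 1313 FPKM in retinoic acid, against 214, 179.5 and 168 FPKM in serum, so that it was already present in serum. Stra6, the membrane receptor that takes up retinol, measured 331, 328 and 293 FPKM in retinoic acid, against 1.43, 2.03 and 2.9 FPKM in serum (log2 fold change 6.96 ± 0.54 (SE), limma adjusted p = 1.58e-08). Rbp4, the retinol carrier of blood plasma that is also an endoderm product, measured 47.6, 45.7 and 127 FPKM in retinoic acid, against 16.6, 9.7 and 14 FPKM in serum, and retinoic acid replicate 3 was the highest of the 6. Fabp5, a fatty acid carrier that can also bind retinoic acid, rose by less, with a log2 fold change of 1.13 ± 0.26 (SE), limma adjusted p = 0.00113.

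Among the genes of retinoid metabolism, 7 of 10 tested were higher and 0 lower. The genes on both sides of retinoic acid metabolism rose. On the side of breakdown, Cyp26b1 measured 1034, 1048 and 869 FPKM in retinoic acid, against 1.17, 1.37 and 1.15 FPKM in serum (log2 fold change 9.15 ± 0.48 (SE), limma adjusted p = 1.94e-10). Cyp26c1, the third enzyme of this family, measured 40.6, 39.8 and 41.6 FPKM in retinoic acid, against 1.07, 0.845 and 1.53 FPKM in serum. On the side of synthesis, Aldh1a2, which makes retinoic acid from retinal, measured 473, 448 and 415 FPKM in retinoic acid, against 5.6, 4.85 and 6.28 FPKM in serum (log2 fold change 6.20 ± 0.27 (SE), limma adjusted p = 1.91e-11). Rdh10, which makes retinal from retinol, had a log2 fold change of 2.95 ± 0.25 (SE), limma adjusted p = 3.71e-08. Dhrs3, which turns retinal back into retinol, measured 745, 773 and 625 FPKM in retinoic acid, against 9.39, 14.1 and 9.73 FPKM in serum (log2 fold change 5.97 ± 0.24 (SE), limma adjusted p = 1.28e-11). Aldh1a1 measured 5.58, 8.57 and 8.21 FPKM in retinoic acid and was listed at 0 in all 3 serum libraries. Aldh1a3, Rdh11 and Bco1 did not pass the test, with log2 fold changes of -0.45, -0.30 and -0.12 and limma adjusted p of 0.233, 0.237 and 0.804. Rdh11 did pass in a fit of the 6 wild-type libraries alone (limma adjusted p = 0.0134).

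**Figure D1:**
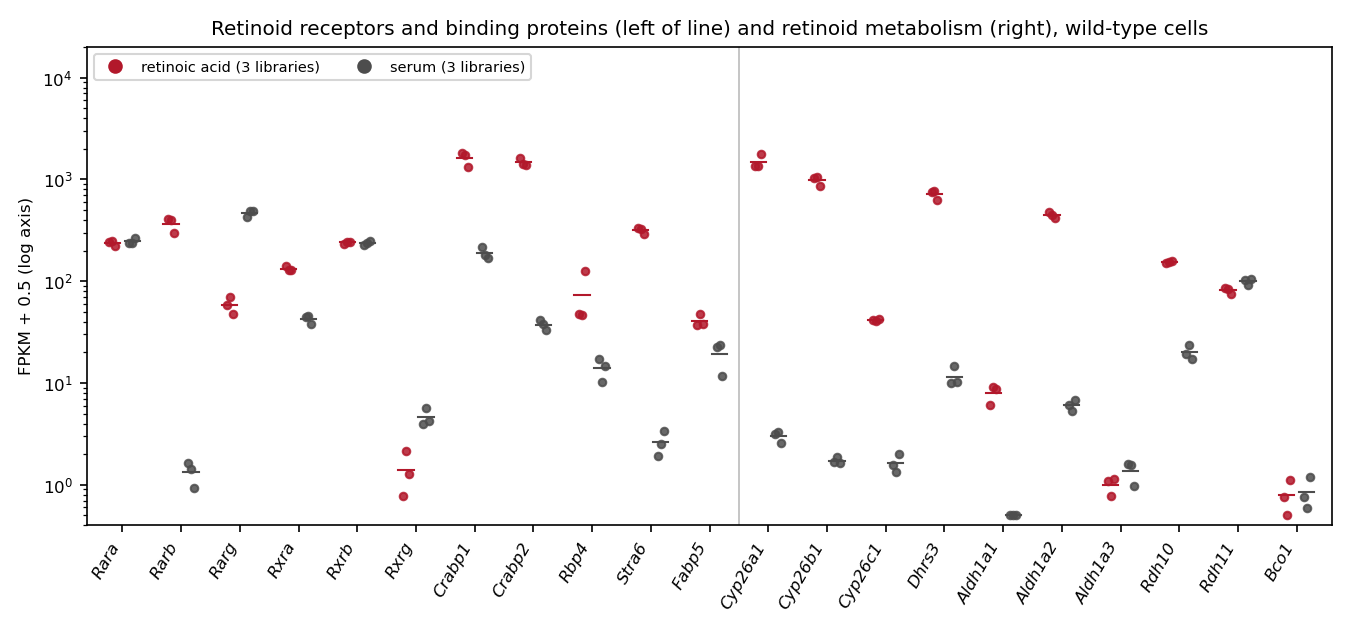
FPKM + 0.5 (log axis) of 21 retinoid genes in wild-type cells, each point 1 library, 3 in retinoic acid (left, red) and 3 in serum (right, grey), with the mean as a line. Rarb, Stra6, Cyp26a1 and Cyp26b1 lie more than 100-fold apart in FPKM between the cultures, Rarg lies lower in retinoic acid, and Rara and Rxrb overlap.

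The Hox genes of the 3′ and middle parts rose in all 4 clusters, and those at the 5′ ends mostly did not. Of 37 Hox genes tested, 30 were higher in retinoic acid and 2 lower. All 27 tested members of paralog groups 1 to 9 were higher, with a median log2 fold change of 6.70 and a highest of 9.88, and in each of the 27 the 3 retinoic acid libraries lay above the 3 serum libraries. Of the 10 tested members of groups 10 to 13, 3 were higher and 2 lower. This split at group 9 was chosen after the values were seen. Among all genes tested, 35.8% had the 3 retinoic acid libraries above the 3 serum libraries, and 39.4% had them below.
By cluster, 9 of 11 tested were higher and 0 lower in Hox A (chromosome 6), and 10 of 10 tested were higher and 0 lower in Hox B (chromosome 11). In Hox C (chromosome 15), 6 of 9 tested were higher and 2 lower, and in Hox D (chromosome 2), 5 of 7 tested were higher and 0 lower. Cluster medians of the log2 fold change were 5.60, 7.82, 6.70 and 4.96 in the order A to D, beside -0.05 for all genes. Hoxd10 and Hoxd12 did not pass the filter on low values.

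The largest change of a Hox gene was that of Hoxb6 (mm9 chr11:96160485-96162883), at 698, 718 and 593 FPKM in retinoic acid, against 0.721, 0.083 and 0 FPKM in serum (log2 fold change 9.88 ± 1.15 (SE), limma adjusted p = 1.53e-06). Hoxb8 was the most abundant in retinoic acid, at 945, 866 and 736 FPKM in retinoic acid, against 1.17, 0.744 and 0.857 FPKM in serum. Hoxc8 measured 467, 446 and 431 FPKM in retinoic acid, against 0.251, 0.092 and 0 FPKM in serum (log2 fold change 9.53 ± 0.79 (SE), limma adjusted p = 3.56e-08). These genes were close to 0 in every serum library.
The 3′ ends of the clusters were also high. Hoxb2 measured 822, 798 and 701 FPKM in retinoic acid, against 0.731, 4.5 and 0.729 FPKM in serum, and serum replicate 2 was the highest serum library. Hoxb1 had a log2 fold change of 5.83 ± 0.33 (SE), limma adjusted p = 4.41e-10, and Hoxd1 a log2 fold change of 4.96 ± 0.37 (SE), limma adjusted p = 1e-08.
At the 5′ ends, Hoxa10 and Hoxc10 were higher, at 79.6, 75.8 and 67.5 FPKM in retinoic acid and 0.788, 2 and 4 FPKM in serum for Hoxa10. Hoxc10 measured 28.3, 32.3 and 39.6 FPKM in retinoic acid, against 1.62, 1.14 and 1.81 FPKM in serum. Hoxb13, which stands apart from the rest of its cluster, measured 66.4, 66.3 and 69.5 FPKM in retinoic acid, against 13.1, 11.4 and 19.5 FPKM in serum (log2 fold change 2.198 ± 0.34 (SE), limma adjusted p = 3.75e-05). Hoxc12 and Hoxc13 went the other way. Hoxc13 measured 5.52, 5.26 and 8.52 FPKM in retinoic acid, against 23.7, 27.8 and 42.7 FPKM in serum (log2 fold change -2.19 ± 0.26 (SE), limma adjusted p = 2.38e-06), and Hoxc12 had a log2 fold change of -3.22 ± 0.29 (SE), limma adjusted p = 7.76e-08. Hoxa11, Hoxa13, Hoxc11, Hoxd11 and Hoxd13 did not pass the test, with log2 fold changes of -0.58, 0.45, -0.72, -0.36 and -0.47.
The positions of 10 of the 37 Hox genes overlap another entry. Hoxb5os, which is antisense to Hoxb5 and Hoxb6 and spans both (mm9 chr11:96152351-96168224), had a log2 fold change of 9.65 ± 1.16 (SE), limma adjusted p = 2.34e-06. No source used here states the strand, so its reads and those of the genes it overlaps cannot be told apart.

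**Figure D2:**
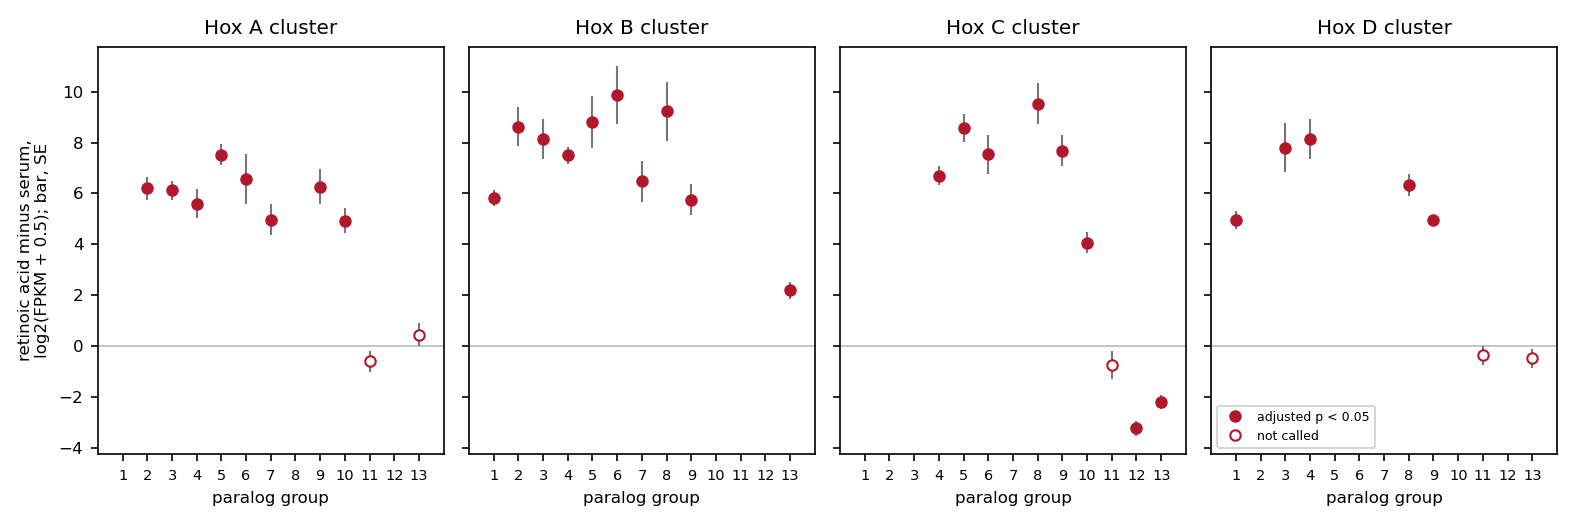
Log2 fold change of 36 Hox genes, retinoic acid minus serum on the log2(FPKM + 0.5) scale, against paralog group, with 1 panel a cluster, SE as bars, and filled points for an adjusted p under 0.05. The 26 members of groups 1 to 9 shown lie between 4.94 and 9.88, and groups 11 to 13 lie near or below 0 except Hoxb13.

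The regulators that act with or downstream of retinoic acid gave the largest increase of any named gene. Of this list, 14 of 22 tested were higher and 4 lower. Nr2f1 (mm9 chr13:78328236-78335710), an orphan nuclear receptor known from retinoic acid treated cells, measured 1164, 1159.6 and 850.1 FPKM in retinoic acid, against 0.711, 0.719 and 0.258 FPKM in serum (log2 fold change 9.98 ± 0.76 (SE), limma adjusted p = 1.44e-08). Its paralog Nr2f2 measured 599.6, 556 and 465 FPKM in retinoic acid, against 0.169, 0.104 and 0.409 FPKM in serum (log2 fold change 9.55 ± 0.39 (SE), limma adjusted p = 1.37e-11). Meis1 and Meis2, homeodomain partners of Hox proteins on DNA, had log2 fold changes of 6.96 and 6.20. Tshz1, a zinc finger regulator of the trunk, had a log2 fold change of 7.53 ± 0.57 (SE), limma adjusted p = 1.39e-08. Zfp703, a zinc finger repressor, measured 657, 660.3 and 634 FPKM in retinoic acid, against 5.44, 6.17 and 5.1 FPKM in serum.
Rest, the repressor of neuronal genes outside neurons, fell to 156, 173 and 168 FPKM in retinoic acid, against 604, 609.5 and 608 FPKM in serum (log2 fold change -1.87 ± 0.21 (SE), limma adjusted p = 1.27e-06). Tgm2, which is also on this list, measured 30.9, 30.6 and 36.9 FPKM in retinoic acid, against 63.2, 54.2 and 57.1 FPKM in serum. Its log2 fold change was -0.82 ± 0.14 (SE), limma adjusted p = 6.25e-05. Cdx1, a regulator of the posterior body axis, was also lower (log2 fold change -2.20). Cdx4, its paralog, was listed at 0 in all 3 retinoic acid libraries and was barely present in serum, at 0.822, 0.755 and 0.61 FPKM, and it passed the filter on low values only through libraries outside this comparison. Cdx2 did not pass the test (log2 fold change -0.27, limma adjusted p = 0.678).

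Most pluripotency genes fell, and those of the naive state were all called lower. Of the naive list, 0 of 19 tested were higher and 19 lower, with a median log2 fold change of -6.22. Fgf4, the growth factor that Pou5f1 and Sox2 switch on in stem cells, measured 0, 0.14 and 0.219 FPKM in retinoic acid, against 943, 866 and 989.5 FPKM in serum (log2 fold change -10.57 ± 0.17 (SE), limma adjusted p = 8.16e-16). Nanog (mm9 chr6:122657507-122664651), a core regulator of the naive state, measured 4.32, 2.66 and 5.58 FPKM in retinoic acid, against 2169, 2063 and 1876 FPKM in serum (log2 fold change -8.81 ± 0.21 (SE), limma adjusted p = 5.65e-14). Esrrb, the nuclear receptor of the same network, measured 3.49, 4.09 and 7.87 FPKM in retinoic acid, against 1554, 1591 and 1671 FPKM in serum. Klf2 had a log2 fold change of -7.14 ± 0.16 (SE), and Klf4, which LIF sustains, one of -4.39 ± 0.26. Zfp42 and Dppa5a, markers of stem cells, remained at 32.5 to 45.6 and 33.6 to 118 FPKM in retinoic acid, against 2921 to 3048 and 3705 to 4426 FPKM in serum. Tbx3 fell least, to 187, 186 and 173 FPKM in retinoic acid, against 276, 282 and 249.9 FPKM in serum (log2 fold change -0.56 ± 0.22 (SE), limma adjusted p = 0.0327), and its call was lost when any 1 of the 6 libraries other than serum replicate 3 was left out (limma adjusted p up to 0.0819).

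Of the core pluripotency genes, 2 of 17 tested were higher and 14 lower. Tdgf1, the Nodal co-receptor Cripto and the gene with the lowest log2 fold change of all 18002, measured 1.7, 1.47 and 0.647 FPKM in retinoic acid, against 3838, 3368 and 3163 FPKM in serum (log2 fold change -10.98 ± 0.28 (SE), limma adjusted p = 9.65e-14). Pou5f1 (mm9 chr17:35642977-35647722), which encodes Oct4, measured 13.8, 18.6 and 73.9 FPKM in retinoic acid, against 7704, 7975 and 8379.5 FPKM in serum (log2 fold change -8.20 ± 0.44 (SE), limma adjusted p = 2.45e-10). Retinoic acid replicate 3 was the highest of its group, and without it the log2 fold change of Pou5f1 was -8.92. Utf1 and Gdf3, both of the stem cell network, had log2 fold changes of -8.31 and -5.98. L1td1 was likewise highest in replicate 3 among the retinoic acid libraries, at 28.7, 23.1 and 94.6 FPKM in retinoic acid and 1817, 1969.8 and 1706 FPKM in serum. Its log2 fold change was -5.50 with that library and -6.12 without it.
Sox2, which neural progenitors also express, fell to 542, 499 and 483 FPKM in retinoic acid, against 3307, 3398 and 3446 FPKM in serum (log2 fold change -2.74 ± 0.21 (SE), limma adjusted p = 1.85e-08). It lies within Sox2ot, which is counted as a separate entry. The pair of RNA-binding proteins that block let-7 maturation parted. Lin28a had 427, 389 and 491 FPKM in retinoic acid, against 757, 826 and 697 FPKM in serum (log2 fold change -0.80 ± 0.21 (SE), limma adjusted p = 0.00279). Lin28b had 181, 181 and 188 FPKM in retinoic acid, against 76.1, 81.7 and 75.6 FPKM in serum (log2 fold change 1.23 ± 0.19 (SE), limma adjusted p = 3.11e-05). Tcf3 (mm9 chr10:79871910-79896398) was the other listed symbol that rose, with a log2 fold change of 0.82 ± 0.07 (SE). It was listed by symbol, and a role in pluripotency of the gene at that position was not tested.
The genes with the 12 largest decreases also held Trh, the precursor of thyrotropin-releasing hormone, at 4.49, 3.89 and 3.42 FPKM in retinoic acid, against 1665, 1948 and 1739 FPKM in serum. Platr10, a stem cell long noncoding RNA, had a log2 fold change of -8.41, and Khdc3, an oocyte and embryo gene of the KH domain family, -7.66. Pou5f1-rs4 and Pou5f1-rs6, which are copies related to Pou5f1, had -8.00 and -7.54. Pou5f1-rs6 measured 0, 0 and 3.64 FPKM in retinoic acid, against 173, 175 and 219 FPKM in serum, and without retinoic acid replicate 3, where both other libraries are listed at 0, its fitted log2 fold change was -8.56. Reads of such copies and of Pou5f1 could have been shared in the counting, so these values are uncertain.

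**Figure D3:**
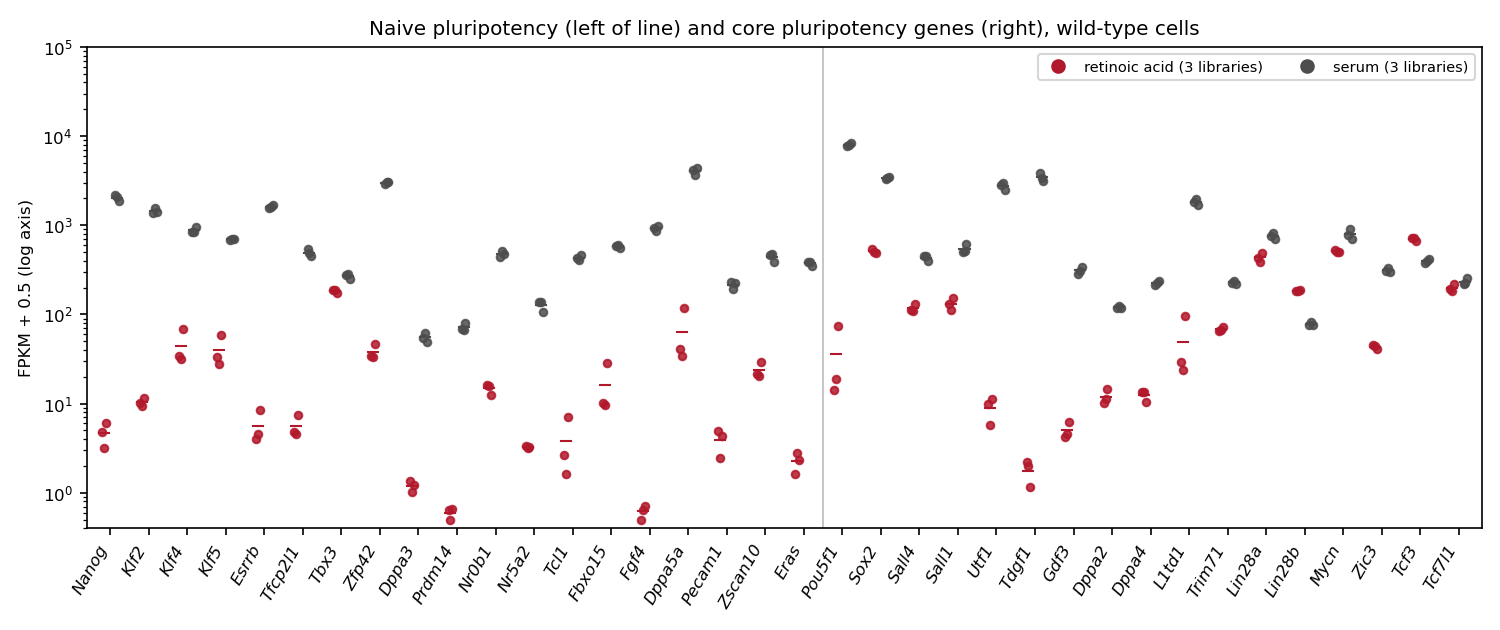
FPKM + 0.5 (log axis) of 19 naive and 17 core pluripotency genes in wild-type cells, each point 1 library, 3 in retinoic acid (left, red) and 3 in serum (right, grey), with the mean as a line. Nanog lies at 2.66 to 5.58 FPKM in retinoic acid and at 1876 to 2169 FPKM in serum, Sox2 and Lin28a lie closer together, and Lin28b and Tcf3 are higher in retinoic acid.

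A microRNA cluster that marks embryonic stem cells fell with them. The mir-290 cluster (miR-290 to miR-295, chromosome 7) is the most abundant microRNA source of mouse embryonic stem cells, and its main products share a seed, the bases 2 to 8 that pair with target RNAs. The files give reads over the hairpins, which are parts of the primary transcript in this library type, so mature microRNAs were not measured. The cluster was chosen after its values were seen. Mature sequences matched to its hairpins (RefSeq, GRCm38.p6) are shown with the seed in capitals, first those whose seeds begin AAGUGC and then those that share CUCAAAC.
miR-291a-3p: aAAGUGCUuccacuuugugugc
miR-294-3p: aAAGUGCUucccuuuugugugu
miR-295-3p: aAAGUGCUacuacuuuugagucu
miR-290a-3p: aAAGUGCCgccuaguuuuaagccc
miR-291b-3p: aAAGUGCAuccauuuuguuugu
miR-290a-5p: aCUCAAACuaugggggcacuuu
miR-292a-5p: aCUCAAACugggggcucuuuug
miR-293-5p: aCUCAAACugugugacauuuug
The first 3 share all 7 seed bases. The seeds of miR-290a-3p and miR-291b-3p were each found once among the 17 mature sequences matched. For the Mir292 hairpin only miR-292a-5p was matched, so its other arm is not shown or compared.
All 9 hairpin entries of the cluster were lower in retinoic acid. Mir295 measured 0, 0 and 2.44 FPKM in retinoic acid, against 403, 339 and 349 FPKM in serum (log2 fold change -8.65 ± 0.48 (SE), limma adjusted p = 3.31e-10). Mir294 measured 0, 0 and 2.99 FPKM in retinoic acid, against 260.4, 213 and 252 FPKM in serum. Mir291a measured 0, 0 and 2.04 FPKM in retinoic acid, against 179, 121 and 166 FPKM in serum. In each of these the only retinoic acid library above 0 was replicate 3, and without it the fitted log2 fold change of Mir295 was -9.50. Mir290a and Mir290b were listed at 0 in all 3 retinoic acid libraries, and their serum values were 71.8 to 98.5 and 61.2 to 100.2 FPKM. The hairpins overlap one another in part (Mir290a with Mir290b, and Mir292 with Mir292b), so these are not independent counts. Of 637 microRNA entries tested, 105 were higher and 118 lower, against 30.4% and 34.1% of all genes.

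Signalling genes moved in ways that differed by pathway. Of the LIF and Stat3 targets, 1 of 9 tested was higher and 5 lower. Socs3, the feedback inhibitor of Stat3, fell with a log2 fold change of -3.61 ± 0.10 (SE), limma adjusted p = 1.38e-13. Of the genes of FGF and ERK feedback, 2 of 14 tested were higher and 7 lower. Spry4, a feedback inhibitor of FGF signalling, measured 1.65, 1.2 and 1.64 FPKM in retinoic acid, against 219, 257 and 254 FPKM in serum (log2 fold change -6.94 ± 0.26 (SE), limma adjusted p = 5.26e-12). Etv5, a transcription factor switched on by ERK, measured 28.5, 31.9 and 30.5 FPKM in retinoic acid, against 937, 980.5 and 874 FPKM in serum. The receptor Fgfr3 rose, with a log2 fold change of 2.45 ± 0.26 (SE), limma adjusted p = 5.18e-07.
In the Nodal and BMP list, 10 of 17 tested were higher and 5 lower. Nodal and its inhibitors of the Lefty family fell. Lefty1, an inhibitor and target of Nodal, measured 7.5, 7.08 and 7.69 FPKM in retinoic acid, against 579, 617 and 648 FPKM in serum, Nodal itself had a log2 fold change of -5.93 ± 0.25 (SE), and Lefty2 one of -7.32 ± 0.29. Inhbb, a subunit of activin, had -8.24 ± 0.22. Several targets of BMP rose. Id3, a BMP target that blocks basic helix-loop-helix factors, measured 3877, 3940.5 and 3567 FPKM in retinoic acid, against 43.7, 40.5 and 19.3 FPKM in serum (log2 fold change 6.84 ± 0.45 (SE), limma adjusted p = 2.9e-09). Id1 and Id2 had log2 fold changes of 2.67 ± 0.27 and 3.51 ± 0.56 (SE), and the ligands Bmp2 and Bmp7 had 2.42 ± 0.47 and 2.35 ± 0.26.
Among Wnt targets, 8 of 16 tested were higher and 3 lower. Lgr5, the R-spondin receptor, measured 48.1, 46.3 and 37 FPKM in retinoic acid, against 0.203, 0.14 and 0.069 FPKM in serum (log2 fold change 6.12 ± 0.53 (SE), limma adjusted p = 5.93e-08). Rspo3, a ligand of that receptor family, had a log2 fold change of 5.51 ± 0.55 (SE). Fzd5, a Wnt receptor, fell to 15.8, 15.3 and 15.1 FPKM in retinoic acid, against 344, 337 and 324 FPKM in serum.

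Most neural progenitor genes rose in these cultures, which are labelled as neuronal differentiation. More genes of the neuron list rose than fell, and its defining markers were divided. Of the progenitor list, 31 of 46 tested were higher and 5 lower (median log2 fold change 2.59). Pax6, the regulator of neural progenitors, measured 211, 205 and 173 FPKM in retinoic acid, against 9.77, 11.2 and 13.3 FPKM in serum (log2 fold change 4.05 ± 0.25 (SE), limma adjusted p = 1.4e-09). Hes5, a Notch target, measured 152, 131 and 92.3 FPKM in retinoic acid, against 2.9, 3.36 and 5.1 FPKM in serum. Dbx1, a homeodomain factor of spinal cord and hindbrain interneuron progenitors, measured 154, 114 and 112 FPKM in retinoic acid and was listed at 0 in every serum library. Pax3 (dorsal neural tube and crest), Zic1 and Neurog2 (a proneural factor) had log2 fold changes of 6.96, 6.81 and 6.53. Nes, the intermediate filament of progenitors, rose with a log2 fold change of 1.99 ± 0.47 (SE), limma adjusted p = 0.00161. Sox1, an early neural marker, measured 107, 94.9 and 86.3 FPKM in retinoic acid, against 47.1, 52.6 and 72.5 FPKM in serum. Every retinoic acid library lay above every serum library, but Sox1 did not pass the test (limma adjusted p = 0.311). Fabp7, a radial glia marker, was low at 12.3, 6.81 and 8.87 FPKM in retinoic acid, against 0.314, 1.15 and 0.143 FPKM in serum, and its call (limma adjusted p = 0.0323) was lost without retinoic acid replicate 1, 2 or 3 and without serum replicate 1 or 3, with adjusted p up to 0.0887. Nkx6-2, a factor of ventral progenitors, fell with a log2 fold change of -3.14 ± 0.33 (SE). Otx2, a regulator of the epiblast and of the anterior brain that is on the list of formative and primed epiblast, measured 0.154, 0.887 and 0.484 FPKM in retinoic acid, against 130.1, 143 and 91.8 FPKM in serum (log2 fold change -6.96 ± 0.29 (SE), limma adjusted p = 1.3e-11).

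Of the neuron list, 23 of 51 tested were higher and 10 lower (median log2 fold change 1.18), shares that stand beside 30.4% and 34.1% for all genes. The 5 defining markers Tubb3, Dcx, Elavl3, Stmn2 and Snap25 summed to 326 to 495 FPKM in retinoic acid, against 1327 to 1644 FPKM in serum. Stmn2, a microtubule regulator of growing axons, measured 63.1, 58.2 and 30.2 FPKM in retinoic acid, against 1135, 1073 and 849 FPKM in serum (log2 fold change -4.38 ± 0.38 (SE), limma adjusted p = 5.84e-08), and it made up most of the serum sum. Dcx, a marker of young neurons, measured 25.4, 22.4 and 13.2 FPKM in retinoic acid, against 0, 0.024 and 0 FPKM in serum (log2 fold change 5.31 ± 1.38 (SE), limma adjusted p = 0.00313). Tubb3, the neuronal tubulin, measured 345, 302 and 247 FPKM in retinoic acid, against 452, 479 and 418 FPKM in serum, so that every retinoic acid library lay below every serum library (limma adjusted p = 0.288). For Elavl3 every retinoic acid library lay below every serum library, and for Snap25 above. Neither gene passed the test, with log2 fold changes of -0.50 and 1.75. In a fit of the 6 wild-type libraries alone, Sox1, Tubb3 and Snap25 did pass it, with limma adjusted p of 0.00871, 0.00631 and 0.000497. The regulators of early neurons Nhlh1 and Nhlh2 rose, with log2 fold changes of 6.09 ± 0.83 and 5.96 ± 1.08 (SE). Mapt and Nefh, proteins of the mature axon, fell with log2 fold changes of -2.58 and -3.14. Among glial genes, 4 of 11 tested were higher and 4 lower. S100b and Aqp4 were below the filter, at no more than 0.791 FPKM in retinoic acid and 0.14 FPKM in serum, and Gfap was at 0.953, 0.652 and 1.1 FPKM in retinoic acid and 4.78, 3.15 and 2.75 FPKM in serum (limma adjusted p = 0.267, and 0.00171 in the fit of the 6 wild-type libraries alone).

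Most genes of the neural crest were higher as well. Of this list, 9 of 13 tested were higher and 4 lower. Msx1, a homeodomain factor of crest and dorsal neural tube, measured 581, 543 and 529.5 FPKM in retinoic acid, against 1.54, 2.44 and 4.14 FPKM in serum (log2 fold change 7.51 ± 0.64 (SE), limma adjusted p = 4.87e-08). Tfap2b measured 79, 80.4 and 86.2 FPKM in retinoic acid and was listed at 0 in the 3 serum libraries, and Tfap2a had a log2 fold change of 2.39 ± 0.23 (SE), limma adjusted p = 2.24e-07. Sox10, which marks migrating crest, fell to 1.14, 1.54 and 1.22 FPKM in retinoic acid, against 4.65, 5.4 and 5.93 FPKM in serum (log2 fold change -1.69 ± 0.29 (SE), limma adjusted p = 7.76e-05). Mitf, Erbb3 and Ngfr, also on this list, were lower too, with log2 fold changes of -2.95 ± 0.21, -2.50 ± 0.25 and -1.94 ± 0.25 (SE).

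Most regulators of primitive endoderm rose as well. Of that list, 10 of 13 tested were higher and 1 lower (median log2 fold change 3.10), and 2 were lower without retinoic acid replicate 3. Gata6 measured 197, 194 and 240.4 FPKM in retinoic acid, against 11.8, 9.52 and 14.4 FPKM in serum (log2 fold change 4.10 ± 0.21 (SE), limma adjusted p = 1.46e-10). Foxa1 measured 115, 112 and 113 FPKM in retinoic acid, against 3.21, 1.71 and 1.76 FPKM in serum. Sox17 and Gata4 had log2 fold changes of 3.10 ± 0.52 and 2.43 ± 0.49 (SE). Of the products of visceral and parietal endoderm, 14 of 27 tested were higher and 3 lower, and 5 were lower without retinoic acid replicate 3. Ttr, the carrier of thyroid hormone and retinol-binding protein, measured 21, 20.5 and 51.7 FPKM in retinoic acid, against 0.098, 0 and 0.177 FPKM in serum, and Afp 5.86, 4.98 and 8.45 FPKM in retinoic acid against listed values of 0 in serum. In both, replicate 3 was the highest library. Plat, a protease of parietal endoderm, was the largest rise of the list, at 408, 393 and 349 FPKM in retinoic acid, against 5.66, 5.07 and 3.78 FPKM in serum. The 6 endoderm markers together summed to 349 to 511 FPKM in retinoic acid, against 34.4 to 43.6 FPKM in serum.

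Of the genes of primitive streak and mesoderm, 14 of 29 tested were higher and 10 lower. Hand2 (mm9 chr8:59799780-59803314), a basic helix-loop-helix factor of heart, limb and sympathetic progenitors, measured 323, 333 and 395 FPKM in retinoic acid, against 0.426, 0.489 and 0.29 FPKM in serum (log2 fold change 8.60 ± 0.25 (SE), limma adjusted p = 2.87e-13). Osr1 (intermediate mesoderm) and Foxf1 (lateral mesoderm) had log2 fold changes of 7.50 ± 0.47 and 6.20 ± 0.37 (SE). Several genes of the streak itself were lower. T, which encodes brachyury, was low at 0.675, 0.693 and 1.1 FPKM in retinoic acid, against 4.2, 8.31 and 1.85 FPKM in serum (log2 fold change -1.81 ± 0.55 (SE), limma adjusted p = 0.00836), and its call was lost without serum replicate 2 (limma adjusted p = 0.054). Mesp1 measured 0.32, 0.526 and 0.309 FPKM in retinoic acid, against 1.44, 3.35 and 2.31 FPKM in serum (log2 fold change -1.65 ± 0.40 (SE), limma adjusted p = 0.00199). Tbx6 fell with a log2 fold change of -0.81 ± 0.27 (SE), limma adjusted p = 0.0143, which was lost without retinoic acid replicate 3 (limma adjusted p = 0.0537). Tcf15, a factor of somites that stem cells also express, fell most, to 22.3, 22.5 and 15.8 FPKM in retinoic acid, against 856, 936 and 1040.5 FPKM in serum.
In the list of formative and primed epiblast, 7 of 13 tested were higher and 4 lower, with Cdh2 at 5.16 ± 0.76 (SE) and Pou3f1 at -4.06 ± 0.39 on the log2 scale.

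Of the trophoblast genes, 7 of 17 tested were higher and 3 lower. Gata3 measured 193, 199.9 and 205 FPKM in retinoic acid, against 0.741, 0.885 and 0.806 FPKM in serum (log2 fold change 7.25 ± 0.37 (SE), limma adjusted p = 1.19e-10), and Krt18, a keratin of simple epithelia, 731, 690.3 and 742 FPKM in retinoic acid, against 80.2, 93.6 and 41.4 FPKM in serum. Elf5, which defines trophoblast stem cells, was below the filter, at no more than 0.567 FPKM in retinoic acid and 0.877 FPKM in serum, and Hand1 did not pass the test (log2 fold change -0.30). In this list 5 rather than 3 were lower without serum replicate 3. Krt7 rose with a log2 fold change of 1.51 ± 0.49 (SE), limma adjusted p = 0.0132, and that call was lost without retinoic acid replicate 3 (limma adjusted p = 0.059) and without serum replicate 3 (0.0564). Ascl2, a trophoblast factor that is also imprinted, fell to 1.07, 1.05 and 2.94 FPKM in retinoic acid, against 65.7, 60 and 53 FPKM in serum.
Of the surface ectoderm genes, 4 of 12 tested were higher and 5 lower. Of those of blood and endothelium, 3 of 14 tested were higher and 4 lower, and 1 was higher when retinoic acid replicate 1 or 3 or serum replicate 1 or 3 was left out. Gata1, the red cell regulator, fell to 0.045, 0 and 0.175 FPKM in retinoic acid, against 8.53, 6.8 and 8.76 FPKM in serum. Cdh5, the endothelial cadherin, rose to 3.87, 3.41 and 5.75 FPKM in retinoic acid, against 1.29, 1.35 and 1.19 FPKM in serum, while Tek and Tal1 fell.

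Among fibroblast and matrix genes, 14 of 19 tested were higher and 2 lower. Igfbp5, a binding protein of insulin-like growth factors, measured 2277, 2496 and 1548 FPKM in retinoic acid, against 6.76, 6.31 and 4.39 FPKM in serum (log2 fold change 8.37 ± 0.94 (SE), limma adjusted p = 1.12e-06). Col3a1 measured 143, 154 and 82.7 FPKM in retinoic acid, against 1.03, 0.673 and 0.508 FPKM in serum, and Col1a1 and Col1a2 had log2 fold changes of 2.26 ± 0.61 and 3.73 ± 0.90 (SE). Thy1 was lower, with a log2 fold change of -2.33 ± 0.24 (SE), limma adjusted p = 3.5e-07. Fn1, also on this list, fell to 266, 306 and 272 FPKM in retinoic acid, against 1122, 1048 and 1073 FPKM in serum (log2 fold change -1.94 ± 0.16 (SE), limma adjusted p = 3.84e-08). In the list of the cadherin switch, 5 of 14 tested were higher and 7 lower. Cdh1, the cadherin of epithelia and stem cells, fell to 56.4, 57.7 and 113 FPKM in retinoic acid, against 843, 814 and 888 FPKM in serum (log2 fold change -3.55 ± 0.19 (SE), limma adjusted p = 2.37e-10). Cdh2, the neural cadherin, rose to 339.8, 325 and 303 FPKM in retinoic acid, against 10, 10.9 and 5.61 FPKM in serum. Epcam fell with a log2 fold change of -2.62 ± 0.28 (SE), and Cdh6 and Cdh11 rose with 6.72 ± 0.66 and 6.21 ± 0.86.

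Sums over the defining markers place these lineages side by side within the same libraries. Of the 5 neural progenitor markers 4 were higher and 0 lower, and they summed to 540.4 to 663 FPKM in retinoic acid, against 114 to 134 FPKM in serum. Neural crest markers, 2 higher and 1 lower of 3, summed to 119 to 130.1 FPKM in retinoic acid, against 11.3 to 14.3 FPKM in serum. Trophoblast markers, 2 higher and 0 lower of 4, summed to 211 to 234 FPKM in retinoic acid, against 9.15 to 15.4 FPKM in serum, and Gata3 alone made up 193 to 205 FPKM of the retinoic acid sum. Of the 4 mesoderm markers 1 was higher and 3 were lower, and they summed to 50.8 to 66.4 FPKM in retinoic acid, against 12.9 to 21.5 FPKM in serum, with 45.2 to 59.8 FPKM of the retinoic acid sum in Foxf1. Fibroblast markers, 3 higher and 1 lower of 4, summed to 209 to 317 FPKM in retinoic acid, against 51.2 to 86.5 FPKM in serum. The 4 glial markers, of which 1 was higher and 0 lower, summed to 24.8 to 27.5 FPKM in retinoic acid, against 8 to 11.5 FPKM in serum, and Mbp, a myelin protein gene, made up 23.1 to 25.8 FPKM of the retinoic acid sum. The blood and endothelium markers, 1 higher and 3 lower of 4, summed lower, to 9.56 to 15.5 FPKM in retinoic acid, against 30.1 to 34.5 FPKM in serum. How much each kind of cell contributes to the changes of the lists was not tested.

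**Figure D4:**
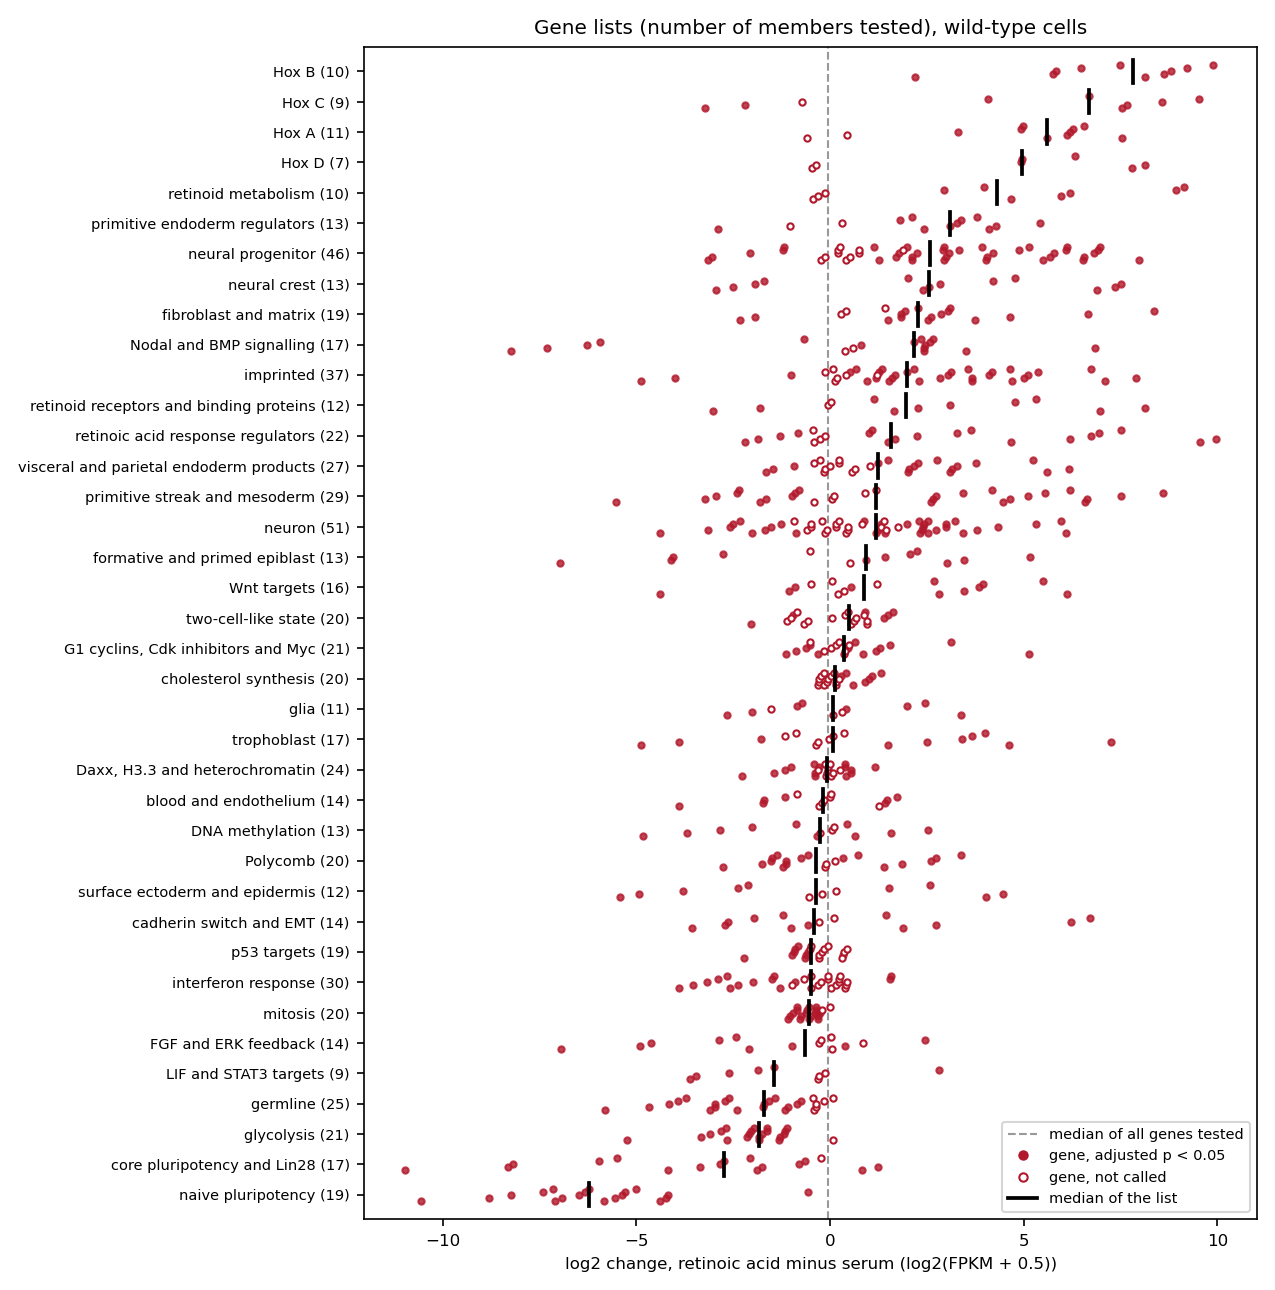
Log2 fold change of every tested member of the 38 gene lists, retinoic acid minus serum on the log2(FPKM + 0.5) scale, with filled points for an adjusted p under 0.05, the median of each list as a black bar and the median of all genes tested (-0.05) as a dashed line. Lists are ordered by median, with Hox B (7.82) at the top and naive pluripotency (-6.22) at the bottom, and several lineage lists hold members on both sides.

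Most imprinted genes, which are expressed mainly from 1 parental copy, were higher in retinoic acid. Of 37 tested 28 were higher, beside 30.4% of all genes, and 3 were lower, with a median log2 fold change of 1.98. Igf2, the growth factor of the fetus, measured 10008, 10618 and 6661 FPKM in retinoic acid, against 37.3, 50.1 and 26.3 FPKM in serum (log2 fold change 7.91 ± 0.81 (SE), limma adjusted p = 4.15e-07). It overlaps the entries Mir483 and Igf2os. H19, the noncoding RNA next to it, measured 5689.8, 6619 and 8122 FPKM in retinoic acid, against 238, 268 and 146 FPKM in serum (log2 fold change 5.00 ± 0.92 (SE), limma adjusted p = 0.000174). Dlk1, a membrane ligand related to Notch ligands, measured 1733, 1836 and 1519.8 FPKM in retinoic acid, against 12.5, 16.5 and 7.91 FPKM in serum. Plagl1, a zinc finger regulator, had a log2 fold change of 6.73 ± 0.28 (SE), limma adjusted p = 1.3e-11, Peg3 had 4.71 ± 0.40 (SE), and the Cdk inhibitor Cdkn1c 3.12 ± 0.49. Airn, the antisense RNA of Igf2r, measured 29.3, 35.2 and 22.4 FPKM in retinoic acid, against 0.405, 0.279 and 0 FPKM in serum, and it overlaps Igf2r, which rose little (log2 fold change 0.52 ± 0.17, SE). The 3 that fell were Ascl2, Snrpn and Phlda2, a placental growth regulator that measured 41.1, 32.4 and 35.6 FPKM in retinoic acid, against 633, 683 and 477 FPKM in serum (log2 fold change -4.01 ± 0.13 (SE), limma adjusted p = 1.35e-12). The files do not resolve parental alleles.

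Among the DNA methylation genes, 4 of 13 tested were higher and 6 lower. Dnmt3l, the cofactor of new methylation, measured 14.4, 16.3 and 62.2 FPKM in retinoic acid, against 694, 763 and 689.7 FPKM in serum, and retinoic acid replicate 3 stood above the other two. Its log2 fold change was -4.84, and -5.50 without that library. Dnmt3b, a methyltransferase of the early embryo, had a log2 fold change of -2.85 ± 0.22 (SE), limma adjusted p = 1.73e-08, whereas Dnmt3a rose slightly to 183, 183 and 159 FPKM in retinoic acid, against 125, 139.6 and 121 FPKM in serum. The enzymes that oxidize methylcytosine parted too. Tet1 measured 26.7, 26.6 and 25 FPKM in retinoic acid, against 362, 334 and 334 FPKM in serum (log2 fold change -3.69 ± 0.14 (SE), limma adjusted p = 6.56e-12), and Tet3 measured 129, 125 and 140.2 FPKM in retinoic acid, against 19.8, 20.7 and 26.8 FPKM in serum (log2 fold change 2.54 ± 0.37 (SE), limma adjusted p = 1.74e-05).
In the Polycomb list, 7 of 20 tested were higher and 10 lower. The chromodomain subunits of the first Polycomb complex moved in opposite directions. Cbx7, the main one in stem cells, measured 390.3, 399.5 and 508 FPKM in retinoic acid, against 988, 996 and 1013 FPKM in serum (log2 fold change -1.22 ± 0.12 (SE), limma adjusted p = 2.15e-07). Cbx2 and Cbx8, which are associated with differentiated cells, had log2 fold changes of 1.87 ± 0.15 and 2.62 ± 0.25 (SE). Phc1 fell (-2.77) and Bmi1 rose (2.73) on the log2 scale. Ezh2, the methyltransferase of the second complex, did not pass the test (log2 fold change -0.14, limma adjusted p = 0.171).
In the list of Daxx, histone H3.3 and heterochromatin, 6 of 24 tested were higher and 8 lower. Daxx itself, intact in these cells, measured 238, 242 and 265 FPKM in retinoic acid, against 307, 319 and 353 FPKM in serum (log2 fold change -0.39 ± 0.07 (SE), limma adjusted p = 0.000163), and Atrx did not pass the test (log2 fold change -0.08, limma adjusted p = 0.697).

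Germline genes were lower or did not pass the test. Of this list, 0 of 25 tested were higher and 19 lower (median log2 fold change -1.70). Tdrd12, a factor of the piRNA pathway, measured 1.12, 1.76 and 1.29 FPKM in retinoic acid, against 109, 113 and 91.5 FPKM in serum, and Sycp3, of the meiotic chromosome axis, had a log2 fold change of -3.94 ± 0.21 (SE), limma adjusted p = 2.23e-10. In the list of the two-cell-like state, which few stem cells enter at a time, 4 of 20 tested were higher and 2 lower, and 1 was higher without serum replicate 3. Its Zscan4 and Usp17l members are near-identical copies, so their counts are uncertain. Zscan4d had a log2 fold change of 1.61 ± 0.50 (SE), limma adjusted p = 0.0105, which was lost without serum replicate 3 (log2 fold change 0.91, limma adjusted p = 0.0706).

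Genes of glycolysis and mitosis were nearly all lower in retinoic acid. Of the glycolytic genes, 0 of 21 tested were higher and 20 lower, with a median log2 fold change of -1.83. Pfkp, the platelet-type phosphofructokinase, measured 12.4, 12.7 and 13 FPKM in retinoic acid, against 524, 487 and 499 FPKM in serum (log2 fold change -5.25 ± 0.13 (SE), limma adjusted p = 9.65e-14). Its position overlaps that of Pitrm1. Slc2a3, a glucose transporter, measured 325, 290.4 and 869 FPKM in retinoic acid, against 4156, 4218 and 4901 FPKM in serum, with replicate 3 the highest in retinoic acid. Ldha, lactate dehydrogenase, fell with a log2 fold change of -2.10 ± 0.24 (SE), limma adjusted p = 1.11e-06. The muscle-type phosphofructokinase Pfkm was the member that did not pass the test (log2 fold change 0.07). Of the mitotic genes, 0 of 20 tested were higher and 18 lower, with a median log2 fold change of -0.55. Ccnb2, a mitotic cyclin, measured 242, 248 and 265 FPKM in retinoic acid, against 522, 517 and 569 FPKM in serum (log2 fold change -1.09 ± 0.10 (SE), limma adjusted p = 1.34e-07).
In the list of G1 cyclins, Cdk inhibitors and Myc, 8 of 21 tested were higher and 5 lower. Ccnd2 measured 1100.4, 945 and 908 FPKM in retinoic acid, against 31.2, 41.3 and 15.7 FPKM in serum (log2 fold change 5.14 ± 0.78 (SE), limma adjusted p = 2.57e-05), while Ccne1 fell with a log2 fold change of -1.14 ± 0.11 (SE). Of the genes of cholesterol synthesis, 7 of 20 tested were higher and 0 lower. Among interferon response genes 2 of 30 tested were higher and 12 lower, and among p53 targets 1 of 19 tested were higher and 8 lower.

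The repeat files count reads over subfamilies of transposons and other repeats, scaled to a separate read set that lies mostly in repeats. A repeat value as deposited is therefore a share of repeat reads. The repeat read set was smaller against the gene read set in retinoic acid, at 7.44, 7.68 and 7.50% of it, against 12.15, 11.20 and 10.53% in serum, and the groups did not overlap. The difference of means was -3.75 percentage points (exact two-sided permutation p = 0.1, the smallest that 3 against 3 allows). Both scales are given for that reason, as deposited and multiplied to the scale of the gene read set.
As deposited, 438 of 864 subfamilies tested were higher in retinoic acid (50.7%) and 72 lower (8.33%). On the scale of the gene read set 95 were higher (11.0%) and 277 lower (32.1%), and with median-ratio scaling 175 were higher (20.3%) and 194 lower (22.5%). The median log2 fold change of all subfamilies was 0.30 as deposited and -0.17 on the gene scale, so that the direction of the bulk of repeats depends on the scale. On all 3 scales 95 subfamilies were higher and 72 were lower, and these keep their direction. A summed subfamily value does not show how many of its copies contribute.

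The largest loss in reads was that of MMETn-int, the internal part of the ETn family of endogenous retroviruses, which is known to be transcribed in early embryos and stem cells. It measured 89.5, 87.3 and 80.1 FPKM in retinoic acid, against 545, 558 and 502 FPKM in serum. Its share of all repeat reads was 2.33% ± 0.138 in retinoic acid, against 14% ± 0.69 in serum (SD, n = 3 each), with a log2 fold change of -2.64 ± 0.09 (SE) as deposited and -3.21 ± 0.16 on the scale of the gene read set (limma adjusted p = 2.9e-11 and 2.66e-09). Of the ETn and MusD list 4 of 5 subfamilies were lower and 1 higher on both scales, and the exception was ETnERV3-int (log2 fold change 1.59 ± 0.17 (SE) as deposited and 1.03 ± 0.22 on the scale of the gene read set).
RLTR1B-int measured 21, 21.2 and 28 FPKM in retinoic acid, against 102, 109 and 179 FPKM in serum, and serum replicate 3 was the highest. L1Md_A, a young LINE-1 subfamily, measured 1.42, 1.38 and 1.49 FPKM in retinoic acid, against 4.16, 4.61 and 3.3 FPKM in serum (log2 fold change -1.21 ± 0.19 (SE) as deposited and -1.60 ± 0.27 on the scale of the gene read set). LTR88c and L1M3b, old repeats with low values, fell with log2 fold changes of -2.83 and -2.54 as deposited. MER83A-int was listed at 0 in all 3 retinoic acid libraries and at 11.8, 23.6 and 6.2 FPKM in serum. The 3 rRNA subfamilies together made up 5.43% ± 0.231 of repeat reads in retinoic acid and 12% ± 1.6 in serum (SD, n = 3 each). The labels describe a depletion of rRNA from these libraries, and its part in this share was not tested.

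The rises were led by retroviral internal parts. RNERVK23-int measured 56.1, 51.1 and 50.4 FPKM in retinoic acid, against 2.91, 3.08 and 2.83 FPKM in serum (log2 fold change 3.94 ± 0.11 (SE) as deposited and 3.36 ± 0.12 on the scale of the gene read set; limma adjusted p = 4.33e-12 and 8.11e-11). IAPEY3-int, of the IAP group, measured 32.2, 30.1 and 19.6 FPKM in retinoic acid, against 2.74, 2.59 and 2.12 FPKM in serum (log2 fold change 3.18 ± 0.24 (SE) as deposited and 2.61 ± 0.24 on the scale of the gene read set). RMER17A-int measured 36.2, 33.6 and 20.7 FPKM in retinoic acid, against 3.46, 3.22 and 2.6 FPKM in serum, and in both of the last 2 retinoic acid replicate 3 was the lowest of its group. IAPEz-int, an IAP internal part chosen after its values were seen, made up 2.33, 2.28 and 3.24% of repeat reads in retinoic acid, against 1, 1.03 and 1.26% in serum. Of 16 IAP subfamilies 9 were higher and 3 lower as deposited, and 4 higher and 5 lower on the gene scale. MLT1H-int, RLTR13A2 and RLTR46 were higher on both scales, with log2 fold changes of 2.77, 2.36 and 2.15 as deposited. MMERVK10C-int had a log2 fold change of 1.27 ± 0.13 (SE) as deposited and 0.72 ± 0.20 on the scale of the gene read set. The tRNA entries tRNA-Ala-GCY and tRNA-Arg-AGA were also among the 5 largest rises as deposited, but they rest on low values, with 2 of 3 serum libraries listed at 0 for each.

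In every repeat list except that of ETn and MusD, the more frequent direction of the calls changed with the scale. It did so over all subfamilies tested as well. Of 11 SINE B1 subfamilies 9 were higher as deposited, and 11 were lower on the gene scale. Of 5 SINE B2 and B3 subfamilies 3 were higher as deposited and 5 were lower on the gene scale, and of 7 SINE B4 and ID subfamilies 7 were higher and then 5 lower. In the MERVL and MT2 list, the elements of the two-cell-like state, 3 of 7 were higher as deposited and 4 lower on the gene scale. In the MaLR list 52 of 94 were higher and 4 lower as deposited, and 9 higher and 37 lower on the gene scale. Of 13 young L1 subfamilies 2 were higher and 1 lower as deposited, and 5 were lower on the gene scale. Of 5 satellites 1 was higher as deposited and 2 were lower on the gene scale. The lists of leukaemia virus with VL30 (6 higher and 5 lower of 21), RLTR9 with RLTR13 (11 and 3 of 23), MMERVK10C with RLTR10 (4 and 0 of 9) and GLN with RLTR1 (3 and 1 of 5) are counted as deposited. On the gene scale these gave 3 and 11, 5 and 7, 2 and 3, and 0 and 1.

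**Figure D5:**
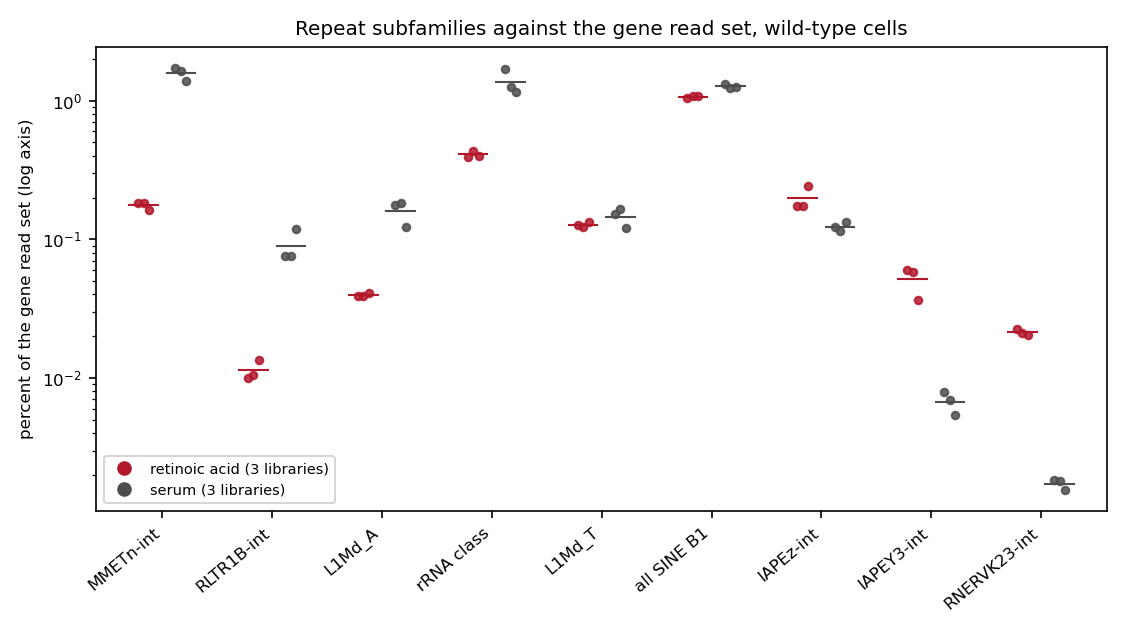
Reads of repeat subfamilies as a percentage of the gene read set (log axis) in wild-type cells, each point 1 library, 3 in retinoic acid (left, red) and 3 in serum (right, grey), with the mean as a line. MMETn-int averages 0.176% in retinoic acid and 1.58% in serum, whereas IAPEz-int, IAPEY3-int and RNERVK23-int are higher in retinoic acid.

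The same change of culture was made in Daxx-null cells, which allows the effect in wild type to be set against it. The Daxx-null line is 1 line, and its libraries still held Daxx reads, at 62.7, 61.7 and 60.8 FPKM in Daxx-null retinoic acid, against 238, 242 and 265 FPKM in wild-type retinoic acid, and at 68.7, 72.2 and 73.7 FPKM in Daxx-null serum, against 307, 319 and 353 FPKM in wild-type serum. The labels do not say which part of the gene was deleted, so this level alone does not test the label. The test of the difference itself called 1475 of 18002 genes (8.19%), 608 (3.38%) with a higher and 867 (4.82%) with a lower log2 fold change in wild type than in Daxx-null cells. In a fit of only the 4 groups concerned the count was 3739. It was 957, 951, 967 and 903 without wild-type retinoic acid replicate 1, wild-type retinoic acid replicate 2, wild-type serum replicate 1 and wild-type serum replicate 3. Of the genes called in wild type, 1098 differed between the genotypes, and 247 of these had a fitted effect of the opposite sign in Daxx-null cells. Among the 24 genes with the largest increases and decreases in wild type, 4 differed, namely Nanog, Inhbb, Pou5f1 and Pou5f1-rs4, all of which fell in both genotypes. The 12 largest increases, the Hox genes, Nr2f1, Nr2f2, Cyp26a1, Cyp26b1 and Hand2 among them, did not pass the test of a difference, which does not show that they were alike.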

How the data were processed

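RNA was enriched with oligo(dT) beads and depleted of rRNA, per the labels' protocols, while the series' design text names only rRNA depletion. Reads were processed with Bowtie2 2.2.6, HOMER 4.8 and limma on mm9, per the submitters' processing notes, and no source used here states the strand. The authors deposited FPKM per gene exon model and per repeat subfamily for each library. They also deposited log2 tables of genes, which equal log2(quantile-normalised FPKM + 1) within 4.99e-09 for genes with a mean FPKM above the median. The agreement of the other genes is not reported. Depth was recovered from steps between low FPKM values, all of which were whole multiples within 0.1 of a unit, with an assumed scale of 10 M reads. The precision of low genes follows that depth, and it covers counting error only.

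Genes with at least 1 FPKM in at least 3 of 18 libraries (18002 of 24505) were put on the log2(FPKM + 0.5) scale. R 4.3.3 ran limma 3.58.1 with 6 group means and a variance trend, and p-values were adjusted by Benjamini-Hochberg. Repeats above 0 in at least 9 libraries (864 of 906) used log2(FPKM + 0.526). The fit was tested on simulated data. Alternatives were other pseudocounts and filters, quantile and median-ratio scaling, the authors' normalised table, fits of the groups compared alone, a replicate block and the omission of each library.

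Members and lists were chosen with earlier results of these data known, and 743 of 752 listed symbols matched. Named genes were the 12 largest and 12 smallest called changes with groups apart and a mean of at least 20 FPKM, up to 3 per list and direction by the same rule, all retinoid and Hox genes, Pou5f1, Sox2 and Nanog, and the markers. Named repeats were the 5 largest and 5 smallest and the ends of each list. Some genes that this rule covers are not reported here, although counts over lists include them. A further 40 genes, 9 of them microRNA hairpins, and IAPEz-int were named after their values were seen. These were Airn, Atrx, Bmp2, Bmp7, Cbx2, Cbx7, Cdx1, Cdx2, Cdx4, Daxx, Dnmt3a, Ezh2, Gdf3, H19, Igf2r, Klf2, Klf4, Krt18, L1td1, Ldha, Lin28a, Meis1, Meis2, Neurog2, Nodal, Peg3, Pfkm, Sycp3, Tbx3, Zfp703, Zic1 and the mir-290 cluster.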

Additional observations from a re-analysis of the deposited data

Results flagged for a closer look

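Among the 24 genes with the largest increases and decreases, 4 were noted because the effect of the culture differed between genotypes in the test of the difference itself (limma adjusted p under 0.05), beside 8.19% of all genes. All 4 fell in both genotypes, and less in wild type. Nanog had a log2 fold change of -8.81 in wild type and -10.46 in Daxx-null cells, a difference of 1.65 ± 0.29 (SE, limma adjusted p = 0.00323), with 0.786, 1.04 and 1.67 FPKM in Daxx-null retinoic acid libraries. Inhbb had -8.24 in wild type and -9.95 in Daxx-null cells, a difference of 1.72 ± 0.32 (limma adjusted p = 0.00411). Pou5f1 had -8.20 in wild type and -11.35 in Daxx-null cells, a difference of 3.15 ± 0.62 (limma adjusted p = 0.00606). It measured 2.84 to 3.75 FPKM in the Daxx-null retinoic acid libraries, below each of the 3 in wild type. Pou5f1-rs4 had -8.00 in wild type and -10.44 in Daxx-null cells, a difference of 2.44 ± 0.45 (limma adjusted p = 0.00394), and it may share reads with Pou5f1.

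Wild-type retinoic acid replicate 3 was the highest library of its group for Pou5f1, and without it the difference for Pou5f1 was 2.43 (limma adjusted p = 0.00264). Over all alternatives the difference ranged from 0.74 to 1.98 for Nanog, from 1.39 to 2.46 for Inhbb, from 2.28 to 3.62 for Pou5f1 and from 1.30 to 2.89 for Pou5f1-rs4, with limma adjusted p of at most 0.0351. Inhbb was near 0 in retinoic acid in both genotypes, at 0.263, 0.199 and 0.273 FPKM in wild-type and 0.204, 0 and 0.203 FPKM in Daxx-null libraries. In serum it measured 261, 242 and 179 FPKM in wild-type and 743, 587 and 552 FPKM in Daxx-null libraries.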

How the results depend on the processing

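Counts of genes higher and lower in retinoic acid stayed within 1.5 times under every alternative, with 1 exception, the count at least 2-fold lower, which was 2062 at a pseudocount of 5. Leaving out 1 library gave 5024 to 5114 genes higher and 5593 to 5972 lower, 3085 to 3266 and 3055 to 3296 at 2-fold, 384 to 395 repeat subfamilies higher and 61 to 68 lower, and a repeat read set difference of -4.14 to -3.32 percentage points. Repeat counts turned on the scale, with 95 higher and 277 lower on the gene read set, 175 and 194 with median-ratio scaling, and 173 and 200 with quantile normalization. The count of genes whose effect differed between genotypes was 3739 with only the groups compared and 3672 with the replicate block added to that fit, and 903 to 1111 without 1 library. The cause was not tested.

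With the replicate block, 5521 genes were higher and 6140 lower, 426 and 74 subfamilies, and 1444 genes differed between genotypes. With the block and only the groups compared, which for repeats was added after seeing the data, the counts were 6126 and 6684 genes and 436 and 76 subfamilies. Same-numbered libraries had correlations of 0.0725, 0.0779 and 0.156. Retinoic acid replicate 1 correlated best with serum replicate 2 (0.0937), and retinoic acid replicate 3 best with serum replicate 3. Such small values cannot decide whether the numbers pair the libraries.

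Of 4429 recomputed values of the 278 named genes, 4382 kept their direction and side of the threshold, 24 lost and 10 gained a call, and 13 changed sign, each in a gene called in neither fit. By scale these were Rara (0.11), Atrx (0.0313) and Ezh2 (0.0797) with quantile normalization, Rara (0.00331) with median-ratio scaling and Rara (0.11), Atrx (0.0312) and Ezh2 (0.0796) in the authors' normalised table. The others did so when 1 library was left out, with log2 fold changes of -0.40 to 0.17 for Bco1, -0.49 to 0.00749 for Cdx2, -0.0122 to 0.0574 for Rxrb, -0.0873 to 0.0029 for Rara and -0.75 to 0.14 for Hoxd11. Of 1216 list counts 1189 stayed within 1.5 times. Subfamily values that changed sign did so by scale. On the gene read set these were RLTR10B2 (-0.0237), MERVL_2A-int (-0.28), MT2A (-0.0397), L1_Mus1 (-0.15), B1_Mus2 (-0.37), B1_Mur1 (-0.17), B2_Mm2 (-0.34), B3A (-0.22), ID (-0.31) and ID4_ (-0.16). With median-ratio scaling they were MERVL_2A-int (-0.0921), B1_Mus2 (-0.18), B2_Mm2 (-0.15), B3A (-0.0285) and ID (-0.12). With quantile normalization they were MERVL_2A-int (-0.19), B1_Mus2 (-0.29), B1_Mur1 (-0.0401), B2_Mm2 (-0.26), B3A (-0.13), ID (-0.21) and ID4_ (-0.11).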
